A study of Mus musculus with 4 samples.

Results

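The genes described here are those of the Wnt pathway: the Wnt ligands, their Frizzled receptors and Lrp5/6 co-receptors, the antagonists that act outside the cell or at its surface, and the genes that the pathway switches on or that dampen it. A gene was included when the single symbol annotated to its probe set began with Wnt, Fzd, Sfrp or Dkk followed by a digit, or was 1 of a short list of co-receptors, TCF/LEF factors and feedback genes. This gave 53 of 19937 measured genes, read by 54 probe sets. Wnt4 had 2 probe sets, of which the brighter by mean over the arrays stands for it, as for every gene with several. Tcf7, which the rule also lists, was not analysed here. The symbol rule also took in Fzd10os, a long noncoding RNA gene beside Fzd10, which is treated separately from the receptors.

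Wnt proteins are lipid-modified secreted ligands that bind a Frizzled receptor together with Lrp5 or Lrp6. In the best known branch this stops a cytoplasmic complex of Axin, APC and GSK3 from destroying beta-catenin, which then enters the nucleus and drives transcription with TCF/LEF factors. Secreted Sfrp, Dkk and Wif1 proteins restrain the pathway from outside, and targets such as Axin2, Nkd1, Notum, Rnf43 and Znrf3 restrain it by feedback. In the brain the pathway is known for roles in neural precursor growth, in the timing of oligodendrocyte differentiation and in blood vessel formation, the last through Wnt7a and Wnt7b.

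The samples were EGFP-positive glioma cells of C57/Bl6 mice, sorted by flow cytometry from tumours that a retrovirus expressing PDGF-B and EGFP induced after injection on embryonic day 14. The late-onset group, labelled high-grade, held 2 samples of 1 tumour each, here tumour 1 and tumour 2. The early-onset group, labelled low-grade, held 2 samples that were each a pool of cells from 2 tumours, here pool 1 and pool 2. Both groups overexpressed PDGF-B, no virus-free sample was compared, and onset, grade and pooling cannot be told apart. The labels give no age beyond onset of symptoms.

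Values are log2 probe set summaries from Affymetrix whole-transcript mouse arrays, so a difference of 1 is a 2-fold difference. A gene is said to have risen or fallen in late-onset cells when its adjusted p in a limma fit over all 19937 genes was under 0.05. Markers of oligodendrocyte progenitors, the cell type PDGF-B gliomas resemble, were bright on all arrays, with 2 of 10 lower and a list median of 12.07 and 11.91 in tumours 1 and 2, against 12.13 and 12.20 in pools 1 and 2. Of 12 microglia and macrophage markers, 11 fell, and the list median was 6.92 and 7.05 in the tumours against 11.01 and 10.75 in the pools. Astrocyte markers fell in 5 of 10 cases and neuron markers in 4 of 10, with 1 neuron marker higher. Over all 19937 genes, 8.12% fell and 6.59% rose. Of 9 myelinating oligodendrocyte markers, 3 fell, and of 9 T cell, 8 ependymal and choroid, 10 mural and 11 endothelial markers 1, 0, 2 and 1 fell, with 1 endothelial marker higher. The choroid plexus gene Ttr, not called, stood at 5.23 and 5.01 in the tumours, against 8.47 and 12.77 in pools 1 and 2, and Kl, Folr1 and Otx2 were each higher in pool 2 than in pool 1 by more than 1. Fewer cells of a type and less RNA per cell cannot be told apart in such bulk samples. These markers moved with the groups that every result below compares, and their part in it was not tested.

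Wnt pathway genes moved in both directions in late-onset cells. Of the 53 genes, 8 rose (15.1%, against 6.59% of all genes) and 3 fell (5.66%, against 8.12% of all genes). The genes that rose were Dkk3, Fzd1, Fzd10, Nkd2, Wnt5a, Fzd2, Fzd10os and Wnt2, and those that fell were Fzd9, Nkd1 and Wnt7a. Together this was 20.8% of the members, against 14.7% of all genes. After cyclic loess scaling between arrays, 8 members were higher (against 5.41% of all genes) and 5 lower (against 8.89%), with Rnf43 and Wnt7b added to the lower genes. The median log2 fold change over the members was 0.03, beside -0.01 over all genes. The samples of the groups did not overlap for 28 members, or 52.8%, against 58.9% of all genes. Of these, 15 were higher in both tumours (against 28.5% of all genes) and 13 lower (against 30.4%). Of the 11 called genes, 4 differed by at least 2-fold: Dkk3, Fzd1, Fzd10 and Fzd9. Of the 8 genes that rose, 6 had a mean level below the median of all genes (7.44), whereas all 3 that fell lay above it. RMA understates fold changes of dim probe sets.

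**Figure D1:**
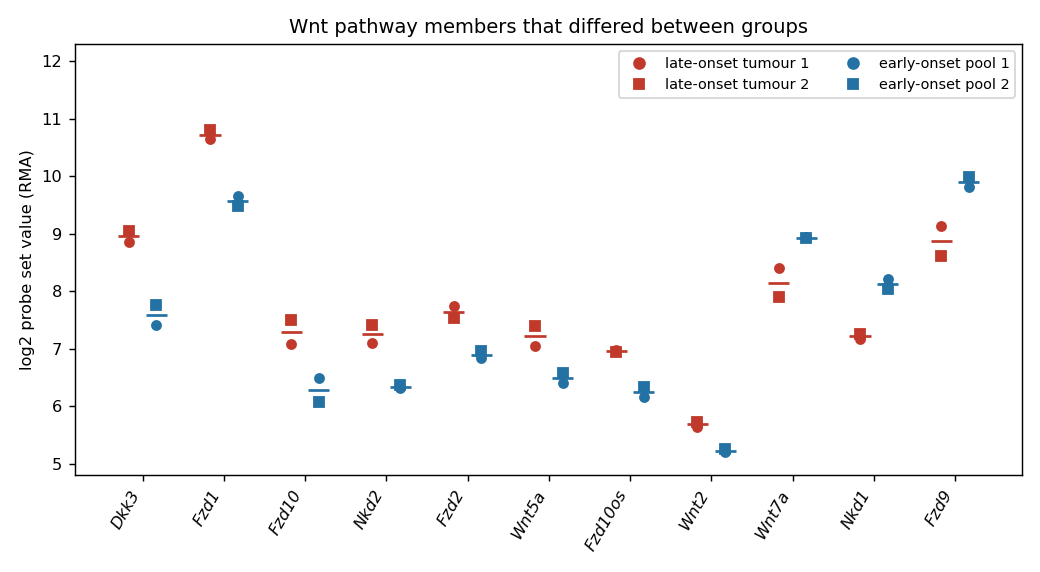
Log2 probe set values of the 11 called members (y axis), each gene with the 2 late-onset tumours in red on the left and the 2 early-onset pools in blue on the right. Circles are sample 1, squares sample 2 and bars the group mean. No red point overlaps the blue points of the same gene, and the difference between group means runs from 0.46 for Wnt2 to 1.36 for Dkk3.

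Among the 19 Wnt ligands, 2 rose (against 6.59% of all genes), 1 fell (against 8.12%) and 16 did not pass the test. Wnt5a, which signals mostly through branches that do not use beta-catenin, stood at 7.05 and 7.4 in tumours 1 and 2, against 6.40 and 6.58 in pools 1 and 2. Both tumours lay above both pools, and the log2 fold change was 0.73 (SE 0.15, adjusted p 0.0357). Wnt7a, a ligand of neural precursors and of brain vessel growth, stood at 8.40 and 7.90 in the tumours, against 8.94 and 8.92 in the pools. The pools were almost equal and both tumours were lower, tumour 2 more so, for a log2 fold change of -0.78 (SE 0.18, adjusted p 0.0463). Its close relative Wnt7b stood at 9.0 and 9.12 in the tumours, against 9.49 and 9.39 in the pools. These groups did not overlap either, but the difference of -0.38 (95% interval -0.65 to -0.11) missed the threshold, with an adjusted p of 0.0751.

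Wnt2 was the dimmest member called, at 5.64 and 5.72 in the tumours, against 5.20 and 5.25 in the pools (log2 fold change 0.46, SE 0.10, adjusted p 0.0393). Its mean of 5.45 lay under 5.88, the 95th percentile of 1027 olfactory receptor genes, which are little expressed outside the nose. Of all 53 members, 9 lay under that mark, 4 of them ligands. Brightness depends on a probe set's sequence, so the mark says how close a signal is to background and not how abundant an RNA is. The calls for ligands rested on few arrays. Wnt2 lost its call without any 1 of the 4 samples, with adjusted p of 0.0639 without tumour 1, 0.108 without tumour 2, 0.195 without pool 1 and 0.179 without pool 2. Wnt5a lost its call without tumour 2 (adjusted p 0.076), pool 1 (0.173) or pool 2 (0.121). Wnt7a lost its call without the same samples, at 0.0604, 0.184 and 0.188, and its difference without tumour 2 was -0.53.

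The 16 ligands that did not pass had log2 fold changes between -0.38 and 0.17. They included 4 pairs of neighbouring ligand genes with no protein-coding gene between them in the RefSeq annotation: Wnt6 and Wnt10a on chromosome 1, Wnt3a and Wnt9a and also Wnt9b and Wnt3 on chromosome 11, and Wnt10b and Wnt1 on chromosome 15. Their 8 log2 fold changes ran from -0.30 to 0.17, with no adjusted p below 0.218. Wnt4, a ligand of kidney and gonad development, stood at 6.97 and 6.81 in the tumours, against 6.88 and 7.24 in the pools. Its second probe set, at 5.89 and 5.93 in the tumours and 6.02 and 5.84 in the pools, also overlapped between groups.

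Of 10 Frizzled receptor genes, 3 rose (against 6.59% of all genes) and 1 fell (against 8.12%). Fzd1 was the receptor with the smallest adjusted p. It stood at 10.64 and 10.81 in tumours 1 and 2, against 9.65 and 9.48 in pools 1 and 2, a 2.23-fold difference (log2 fold change 1.16, SE 0.12, adjusted p 0.00617). Fzd2, which belongs to the same sequence subgroup as Fzd1 and Fzd7, stood at 7.74 and 7.54 in the tumours, against 6.83 and 6.96 in the pools. The log2 fold change was 0.74 (SE 0.12, adjusted p 0.0181), and the groups were clearly apart. Fzd7, the remaining gene of that subgroup, stood at 7.87 and 7.43 in the tumours, against 7.62 in each of the pools. The pools lay between the tumours, and the difference of 0.03 had a 95% interval of -0.39 to 0.45.

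Fzd9 was the receptor that fell. It stood at 9.13 and 8.62 in the tumours, against 9.80 and 9.98 in the pools, a 2.03-fold lower level (log2 fold change -1.02, SE 0.19, adjusted p 0.0274). Both tumours lay under both pools. Fzd10, a receptor close in sequence to Fzd9, went the other way, at 7.09 and 7.5 in the tumours, against 6.49 and 6.07 in the pools (1.01, SE 0.20, adjusted p 0.0331). Fzd1 kept its call under all 15 alternative settings. Fzd2 lost its call without pool 1 (adjusted p 0.107) or pool 2 (0.0837), and Fzd9 without pool 1 (0.0978) or pool 2 (0.15). Fzd10 lost its call without tumour 2 (adjusted p 0.0816), pool 1 (0.0623) or pool 2 (0.153).

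The noncoding neighbour of Fzd10 rose with it. Fzd10os stood at 6.98 and 6.95 in the tumours, against 6.15 and 6.33 in the pools, and the tumours differed by less than the pools did. Its log2 fold change was 0.72 (SE 0.11, adjusted p 0.0151), and the call was lost without pool 1 (0.0911) or pool 2 (0.0616). In the RefSeq annotation 418 bases separate the spans of this pair. Whether either probe set also reads RNA of its neighbour is not stated and was not tested. Tumour 2 minus tumour 1 was 0.41 for Fzd10 and -0.04 for Fzd10os, and pool 2 minus pool 1 was -0.42 and 0.17. The Fzd10 start region is shown because its part before the start lies in the stretch between this pair. The window runs from 250 bases before to 50 bases after the Fzd10 start (GRCm38.p6, chr5:128600856-128601155, plus strand, RefSeq) and begins 168 bases beyond the end of the Fzd10os span. Capitals mark its 45 CG dinucleotides.
Fzd10: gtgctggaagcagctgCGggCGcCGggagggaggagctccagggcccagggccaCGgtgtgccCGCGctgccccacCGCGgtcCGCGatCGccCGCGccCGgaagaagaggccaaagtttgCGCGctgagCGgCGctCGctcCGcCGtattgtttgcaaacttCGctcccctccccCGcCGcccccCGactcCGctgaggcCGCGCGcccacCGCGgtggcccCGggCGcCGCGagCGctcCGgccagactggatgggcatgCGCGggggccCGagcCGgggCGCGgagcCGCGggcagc

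The other receptors did not pass the test. Fzd3 was bright and even, at 10.17 and 10.11 in the tumours, against 10.30 and 10.27 in the pools (-0.14, 95% interval -0.39 to 0.10). Fzd4, the receptor for the vessel ligand norrin, stood at 7.32 and 7.23 in the tumours, against 7.14 and 7.21 in the pools. Fzd5 and Fzd6 overlapped between groups. Fzd8 stood at 6.93 in tumour 1 and 8.32 in tumour 2, against 8.21 and 8.45 in the pools. Tumour 1 alone was low, and the adjusted p of Fzd8 was 0.365 with both tumours and 0.0123 without tumour 2. The log2 fold change was -1.41 without tumour 2 and -0.01 without tumour 1.

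Neither co-receptor gene passed. Lrp6 stood at 10.17 and 10.03 in the tumours, against 10.10 and 9.86 in the pools, which overlapped (0.12, 95% interval -0.20 to 0.44). Lrp5 stood at 8.34 and 8.03 in the tumours, against 8.61 and 8.49 in the pools. The tumours were lower, by 0.37 on the log2 scale, but with an adjusted p of 0.155.

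**Figure D2:**
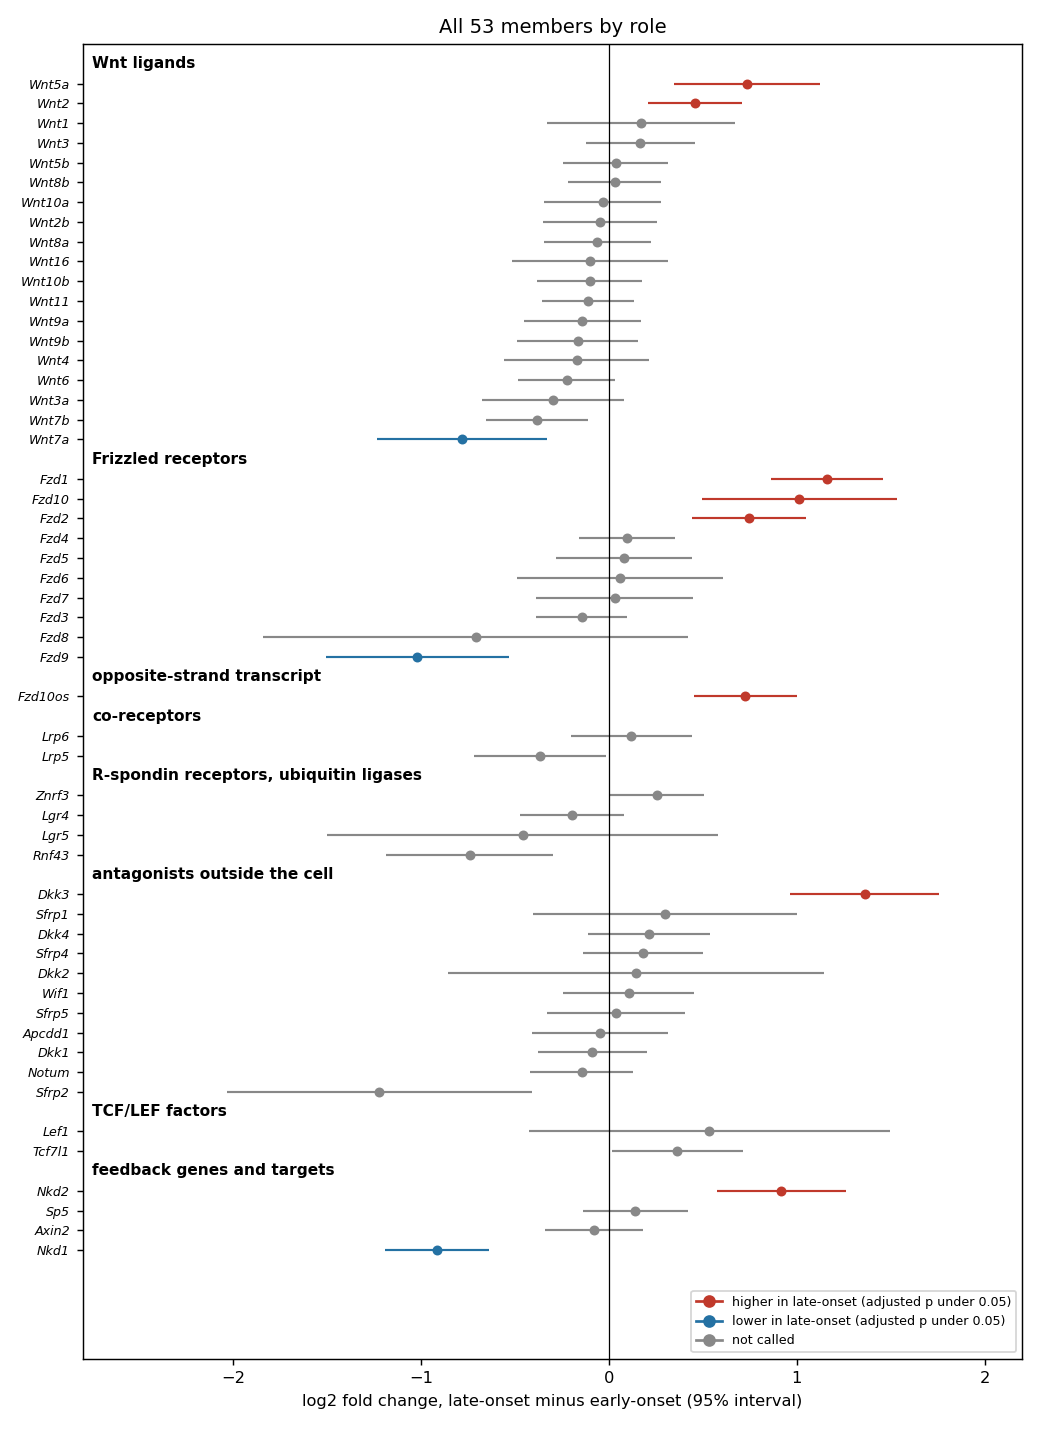
Log2 fold change of late-onset over early-onset cells for all 53 members (x axis) with its 95% interval from the limma fit, grouped by role. Red genes rose, blue genes fell and grey genes did not pass the test. Called genes of both directions stand among ligands, receptors and feedback genes, and the widest intervals belong to Fzd8, Lgr5, Dkk2 and Lef1.

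Of 11 antagonists, 1 rose (against 6.59% of all genes) and 10 did not pass. Dkk3, a divergent Dickkopf protein that is not an established Lrp6 blocker, had the largest difference of all members. It stood at 8.85 and 9.05 in tumours 1 and 2, against 7.41 and 7.76 in pools 1 and 2. This was a 2.57-fold difference (log2 fold change 1.36, SE 0.16, adjusted p 0.00796), and the call held under all 15 alternative settings. The other Dickkopf genes did not pass. Dkk1, the classical Lrp6 antagonist, stood at 5.78 and 5.85 in the tumours, against 5.81 and 6.0 in the pools, near background. Dkk4 lay near background as well. Dkk2 stood at 5.97 in tumour 1 and 7.22 in tumour 2, against 6.44 and 6.46 in the pools, so that the pools lay between the tumours.

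Sfrp2, a soluble Frizzled-like decoy, was the brightest antagonist gene and had the largest difference that missed the threshold. It stood at 9.59 and 8.62 in the tumours, against 10.21 and 10.44 in the pools. Both tumours were lower, tumour 2 by more, and the log2 fold change was -1.22 (SE 0.32, adjusted p 0.0648). The difference passed without tumour 1 (-1.70, adjusted p 0.00763), without tumour 2 (-0.74, adjusted p 0.0497) and among genes above the median level (0.0488). It missed the threshold under the other 12 alternative settings, with an adjusted p of 0.177 without pool 1 and 0.263 without pool 2. Sfrp1 overlapped between groups, at 7.39 and 6.66 in the tumours and 6.52 and 6.94 in the pools. Sfrp4 stood at 8.42 and 8.15 in the tumours, against 8.14 and 8.07 in the pools, a separation of only 0.18 between means. Apcdd1, a membrane-bound inhibitor that is itself a target of the pathway, stood at 9.06 and 9.39 in the tumours, against 9.34 and 9.21 in the pools. Sfrp5, Wif1 and Notum lay under the olfactory receptor mark.

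The R-spondin receptors Lgr4 and Lgr5 and the ubiquitin ligases Rnf43 and Znrf3, which remove Frizzled receptors from the cell surface, gave no call among 4 genes. Rnf43 came closest, at 7.20 and 7.07 in the tumours, against 7.64 and 8.10 in the pools. Its log2 fold change of -0.74 (SE 0.18) had an adjusted p of 0.0504 and ranged from 0.0372 to 0.173 over the 15 alternative settings, 6 of which called it lower. Znrf3, a close relative of Rnf43, stood at 7.96 and 7.97 in the tumours, against 7.66 and 7.76 in the pools. The groups of this pair lay apart in opposite directions, but the Znrf3 difference of 0.25 had an adjusted p of 0.161. Lgr5, an R-spondin receptor of stem cells, stood at 7.81 and 6.74 in the tumours, against 8.10 and 7.37 in the pools. Both groups were spread by over 0.7, and the groups overlapped.

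The members that encode TCF/LEF factors were Lef1 and Tcf7l1, and neither passed. Tcf7l1, mostly a repressor of target genes, stood at 7.84 and 8.08 in the tumours, against 7.49 and 7.70 in the pools. Both tumours lay above both pools (0.36, 95% interval 0.02 to 0.71), with an adjusted p of 0.154. Lef1, both a partner of beta-catenin and a target, stood at 6.37 in tumour 1 and 7.56 in tumour 2, against 6.40 and 6.47 in the pools. Only tumour 2 stood apart, and the log2 fold change of Lef1 was -0.062 without tumour 2 and 1.13 without tumour 1.

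Feedback genes split. Nkd1 and Nkd2 encode related proteins that bind Dishevelled and dampen the pathway, and Nkd1 is a known beta-catenin target. Nkd1 stood at 7.17 and 7.26 in tumours 1 and 2, against 8.21 and 8.04 in pools 1 and 2, a log2 fold change of -0.91 (SE 0.11, adjusted p 0.00879). Nkd2 stood at 7.10 and 7.41 in the tumours, against 6.31 and 6.37 in the pools, a log2 fold change of 0.92 (SE 0.14, adjusted p 0.0146). The pair thus differed between groups by about the same amount in opposite directions, with no overlap for either gene. The Nkd1 call was lost without pool 1 (adjusted p 0.0591). The Nkd2 call was lost without pool 1 (0.0848) or pool 2 (0.0836).

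Axin2, the target most often used to read the beta-catenin branch, did not pass the test. It stood at 7.71 and 7.76 in the tumours, against 7.75 and 7.87 in the pools, and its log2 fold change of -0.08 had a 95% interval of -0.34 to 0.18 (adjusted p 0.675). Sp5, another target, stood at 6.36 and 6.42 in the tumours, against 6.16 and 6.33 in the pools (0.14, 95% interval -0.14 to 0.42, adjusted p 0.466). Differences of 2-fold in the array values, in either direction, lie outside the intervals of both Axin2 and Sp5. Sp5 was dim, with a mean of 6.32, and RMA understates fold changes of dim probe sets. Its interval therefore covers the array signal and not the RNA itself.

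Promoter windows from RefSeq (GRCm38.p6, 250 bases before to 50 after a start site) were matched for 34 of the 53 genes, with 41 windows. Letters bound by TCF/LEF factors were searched as CTTTG followed by 2 letters that are each A or T, on both strands. They occurred in 7 member windows (17.1%), against 16.9% of all 32851 windows, and in 0 of the 7 windows of called members. Only 7 of the 11 called members had a window (not Dkk3, Wnt5a, Fzd2 or Fzd10os), too few to set that 0 against the share over all windows. Sp5 and Dkk1 held 2 matches each, and Fzd7, Lef1, Wnt11, Wnt3 and Wnt5b held 1. Member windows had a median of 24 CG dinucleotides, against 7 in all windows. Nkd1, which fell, and Nkd2, which rose, are shown with CG in capitals since their windows differ in it, with 6 and 26 CG dinucleotides. Of the other called members with a window, Fzd9 and Wnt7a, which fell, held 53 and 42. Fzd1, Fzd10 and Wnt2, which rose, held 16, 45 and 27. A link between CG count and direction was not tested. The windows shown are chr8:88527383-88527682 (plus strand) for Nkd1 and chr13:73847582-73847881 (minus strand) for Nkd2. The Sp5 window, chr2:70474673-70474972 (plus strand), is shown with its 2 TCF/LEF matches in capitals, at -222 and -104 bases from the start site.
Nkd1: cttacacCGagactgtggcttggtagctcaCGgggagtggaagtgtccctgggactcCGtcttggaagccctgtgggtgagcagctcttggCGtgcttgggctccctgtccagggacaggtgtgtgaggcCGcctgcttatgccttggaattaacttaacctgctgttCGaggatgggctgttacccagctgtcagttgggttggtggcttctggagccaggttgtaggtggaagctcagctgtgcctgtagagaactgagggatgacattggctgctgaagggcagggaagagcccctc
Nkd2: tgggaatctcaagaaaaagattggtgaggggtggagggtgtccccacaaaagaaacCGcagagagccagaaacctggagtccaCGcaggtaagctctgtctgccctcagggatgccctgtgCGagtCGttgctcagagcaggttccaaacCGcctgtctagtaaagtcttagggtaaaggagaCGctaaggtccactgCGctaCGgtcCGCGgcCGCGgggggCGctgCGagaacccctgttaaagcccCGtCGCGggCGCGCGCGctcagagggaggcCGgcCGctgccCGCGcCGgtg
Sp5: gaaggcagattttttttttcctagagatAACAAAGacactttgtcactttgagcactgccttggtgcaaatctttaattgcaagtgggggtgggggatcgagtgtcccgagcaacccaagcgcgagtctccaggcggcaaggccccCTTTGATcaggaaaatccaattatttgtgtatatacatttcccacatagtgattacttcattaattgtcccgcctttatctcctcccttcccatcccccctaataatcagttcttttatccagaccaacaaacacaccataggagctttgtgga

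The late-onset tumours differed from each other at several members. Between tumours, 4 of 53 members differed by at least 1 on the log2 scale (7.55%, against 1.22% of all genes). Between pools 0 did, against 79 of all 19937 genes. Each pool mixed 2 tumours and each late-onset sample held 1, so the spreads of the groups are not on a like basis. Fzd8, Dkk2 and Lef1 were higher in tumour 2, by 1.40, 1.25 and 1.19, and Lgr5 was lower in it by 1.08. None of the 4 was called between groups. Dkk2 was called higher without tumour 1 (0.77, adjusted p 0.024), and stood at -0.48 without tumour 2. Lef1 was called higher without tumour 1 with an adjusted p of 0.0111. Markers of mural cells and fibroblasts were also higher in tumour 2, in 9 of 10 cases, with a list median of 8.18 in tumour 2 and 5.93 in tumour 1, against 6.39 and 6.35 in pools 1 and 2. The matrix gene Dcn stood at 4.96 in tumour 1 and 9.23 in tumour 2. Lum, Col1a1, Col1a2, Acta2 and Pdgfrb were higher in tumour 2 by 3.39, 2.97, 2.85, 2.88 and 1.90. The mural markers Rgs5, Kcnj8, Abcc9 and Vtn differed by only 0.13, 0.23, 0.30 and -0.01. Of 11 endothelial markers, 10 were higher in tumour 2, at a list median of 6.67 against 5.60 in tumour 1. Myelinating oligodendrocyte markers were higher in tumour 2 in 8 of 9 cases (list median 8.06, against 6.72 in tumour 1), astrocyte markers in 8 of 10 and microglia and macrophage markers in 9 of 12. The part of any of these cells in the Fzd8, Dkk2 and Lef1 levels was not tested. T cells, which express Lef1, had a list median of 5.14 and 5.13 in tumours 1 and 2, against 5.53 and 5.55 in the pools. The pool medians were the values of Cd4, the 1 marker of 9 that fell, and the median log2 fold change over the list was -0.07. The part of T cells in the Lef1 level was not tested either. Among genes above the median level, those of chromosome 1 stood higher in tumour 1 than in tumour 2 by a median of 0.40 over 578 genes. Of the 4 members on it, only Fzd7 lay above that level, at 7.87 in tumour 1 and 7.43 in tumour 2. Wnt6 and Wnt10a were slightly higher in tumour 1 (6.59 against 6.47, and 6.82 against 6.70). Fzd5 was slightly lower in tumour 1 (6.86 against 6.90).

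**Figure D3:**
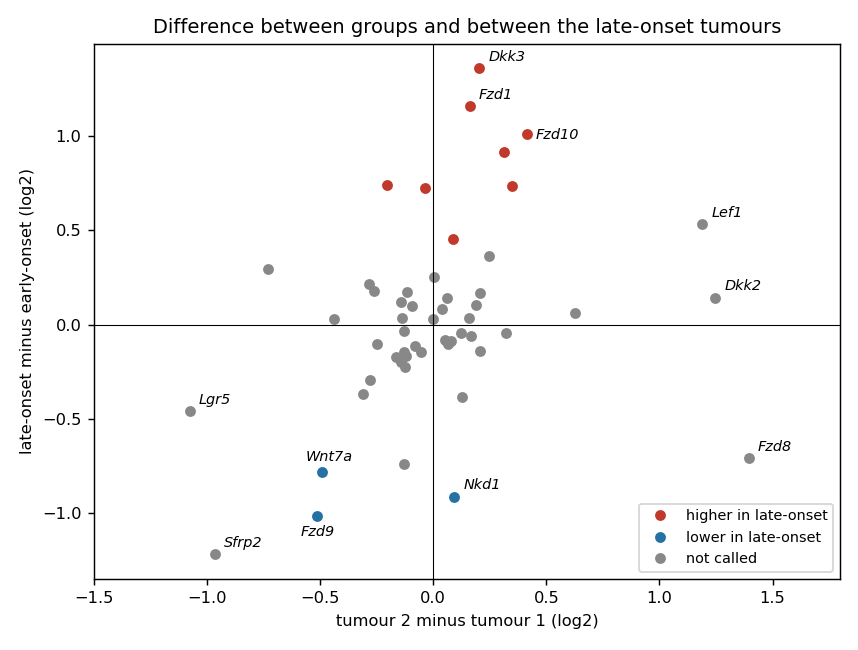
Each point is a member, placed by the log2 difference between the late-onset tumours (tumour 2 minus tumour 1, x axis) and by the log2 fold change of late-onset over early-onset cells (y axis). Called genes (red higher, blue lower) lie within 0.52 of 0 on the x axis, while Fzd8, Dkk2, Lef1 and Lgr5 lie beyond 1.

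**Figure D4:**
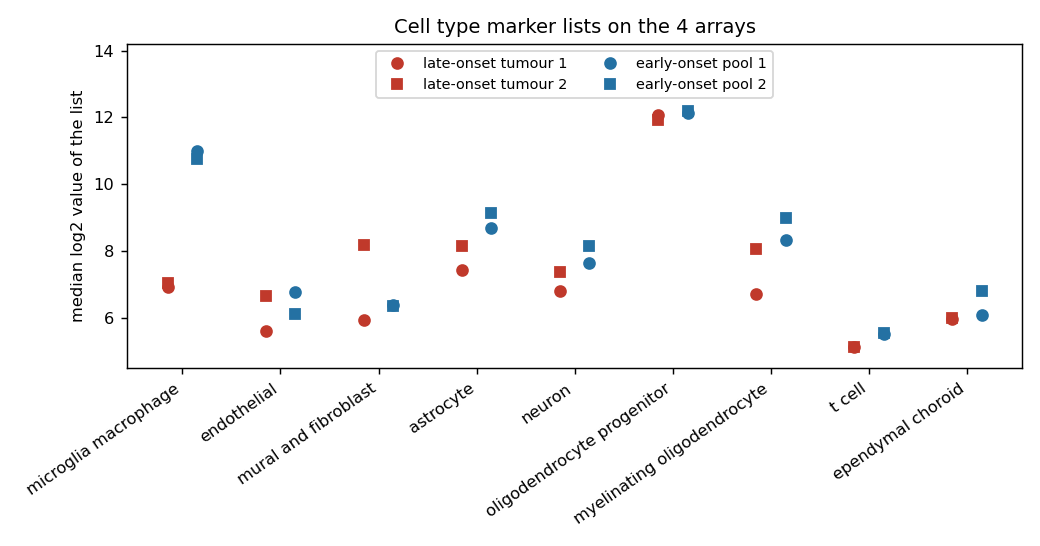
Median log2 value of each cell type marker list (y axis) on the 4 arrays, late-onset tumours in red on the left and early-onset pools in blue on the right. Microglia and macrophage markers are low in both tumours (6.92 and 7.05, against 11.01 and 10.75 in the pools). The mural and fibroblast list has a high median in tumour 2 (8.18), though not all of its markers are raised there.

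Of 91 other listed genes of the pathway, 89 were measured, 5 rose and 5 fell (11.2% called, against 14.7% of all genes), with a median log2 fold change of -0.02. Of 23 genes of the destruction complex and the Dishevelled step, 1 was called (against 14.7% of all genes), and the list median was 0.06. Ctnnb1, which encodes beta-catenin, stood at 12.28 and 12.38 in the tumours, against 12.38 and 12.54 in the pools (-0.13, 95% interval -0.41 to 0.15). The called gene was Apc2, a neural relative of Apc, which fell by 1.18 on the log2 scale (SE 0.16, adjusted p 0.0113, and 0.0525 without pool 1). Of 16 nuclear partners, 1 rose (against 6.59% of all genes), at a list median of -0.03. This was Tle1, a corepressor that binds TCF factors (0.83, SE 0.10, adjusted p 0.00932), which lost its call without pool 1 (0.0542) or pool 2 (0.0698). Tcf7l2, a TCF factor of the oligodendrocyte lineage, stood at 9.06 and 8.96 in the tumours, against 8.69 and 9.04 in the pools, with no call.

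Of 22 secretion and extracellular genes, 2 rose (against 6.59% of all genes) and 2 fell (against 8.12%), at a list median of -0.04. Porcn, the enzyme that attaches the lipid to Wnt proteins, stood at 8.34 and 8.58 in the tumours, against 9.09 and 9.27 in the pools (-0.71, adjusted p 0.0258). Wls, which carries lipid-modified Wnt proteins to the cell surface, stood at 9.28 and 9.58 in the tumours, against 9.08 and 9.06 in the pools, with an adjusted p of 0.14. Ndp, which encodes the Fzd4 ligand norrin, fell (-0.91, adjusted p 0.0348), while Ryk, a Wnt receptor of the tyrosine kinase family, and Kremen1, a receptor for Dkk proteins, each rose by 0.47 (adjusted p 0.0336 and 0.0384). Ryk also missed the threshold after quantile normalization (0.0621) and cyclic loess (0.0662). Kremen1 and Ryk lost their calls without any 1 of the 4 samples (adjusted p 0.085 to 0.22 for Kremen1 and 0.0765 to 0.179 for Ryk). Porcn did so without tumour 1 (0.0603), pool 1 (0.0842) or pool 2 (0.153), and Ndp without tumour 2 (0.0629), pool 1 (0.0994) or pool 2 (0.18).

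Of 12 planar polarity genes, which act in a branch that does not use beta-catenin, 2 fell (against 8.12% of all genes). The list median was -0.23. Celsr3, an adhesion receptor of axon tract formation, stood at 6.17 and 6.14 in the tumours, against 7.21 and 7.20 in the pools (-1.05, SE 0.09, adjusted p 0.00465). Prickle2 fell by 0.51 (adjusted p 0.0437) and lost its call without tumour 1 (0.102), pool 1 (0.207) or pool 2 (0.168), and with each array's median subtracted (0.0644). Of 16 measured genes known as beta-catenin targets in some tissues, 2 rose (against 6.59% of all genes), at a median of 0.08. They were Myc, at 11.46 and 11.27 in the tumours against 9.87 and 10.07 in the pools, and the mitosis gene Birc5 (0.92, adjusted p 0.0186, and 0.0542 without tumour 2 or 0.0705 without pool 1). Ccnd1, the cyclin D1 gene, was bright in all samples, at 13.33 and 13.39 in the tumours and 13.22 and 13.005 in the pools, with an adjusted p of 0.234.

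**Figure D5:**
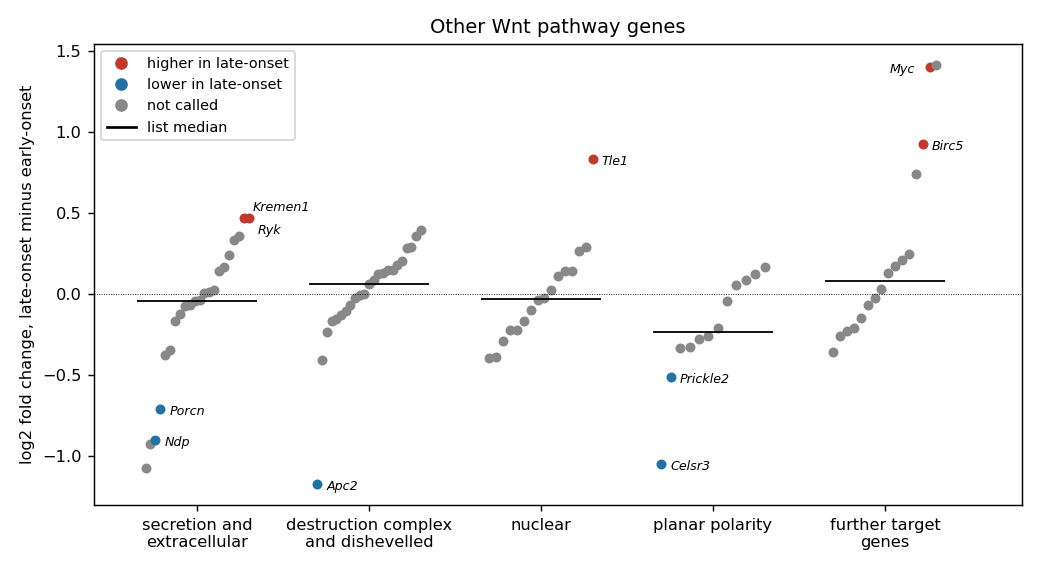
Log2 fold change of late-onset over early-onset cells (y axis) for 89 Wnt pathway genes outside the member rule, in 5 lists (x axis), with the list median as a bar. Red genes rose, blue genes fell, and the 23 genes of the destruction complex list hold 1 called gene, Apc2.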

How the data were processed

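Expression was measured on 4 arrays, 2 of late-onset and 2 of early-onset sorted glioma cells. The deposited values are log2 probe set summaries, made with RMA and affy version 3.4.2 per the submitters' processing notes, which give no parameters. RMA usually gives the probe values of all arrays the same distribution, which hides any shift common to most genes. The deposited probe set values still differed slightly in median, at 6.66 and 6.63 in tumours 1 and 2, against 6.71 and 6.70 in pools 1 and 2. Precision is limited by the number of arrays. P-values cover the spread between samples that the labels name as biological replicates.

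Of 34760 probe sets, 21640 carried 1 gene symbol in the platform annotation, 1321 several and 11799 none, and only the first kind was used. Entrez identifiers tied 21553 of these to the GRCm38.p6 RefSeq table. Differences, late-onset minus early-onset, were fitted over all 19937 genes by limma 3.58.1 (R 4.3.3, lmFit then eBayes with an untrended prior, 2 residual and 3.27 prior degrees of freedom). P-values were adjusted after Benjamini-Hochberg, with a threshold of 0.05, and the procedure was tested on simulated data. Named were all called members, uncalled ones with a log2 difference of at least 1, the brightest members of roles with no call, up to 4 called genes of each other pathway list, and Ctnnb1, Tcf7l2, Wls, Porcn and Ccnd1. Axin2, Sp5 and the uncalled members given with values beyond this were chosen after their values were seen. The members and lists were chosen with earlier results of these data known. Other settings tried were how variances were moderated, dim genes left out, scaling, the probe set rule, weighted arrays, a block for replicate number, thresholds and leaving out each sample.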

Additional observations from a re-analysis of the deposited data

How the results depend on the processing

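Over the 38 genes followed singly, 555 of 559 values under alternative settings kept their direction. The exceptions came with 1 sample left out, where Lgr5 ranged from -0.995 to 0.08, Dkk2 from -0.48 to 0.77, Lef1 from -0.062 to 1.13 and Tcf7l2 from -0.033 to 0.32, with none called where its sign turned. The count of 11 called members ranged from 3 to 13 with 1 sample left out, from 2 to 9 for those that rose and from 1 to 4 for those that fell. It was 3 without either pool, when 4.73% (without pool 1) and 4.26% (without pool 2) of all genes were called, 9 without tumour 2 and 13 without tumour 1. A lone sample was assumed to vary like the other group. The share of all genes called was lower than in the main fit with any 1 sample left out. Counts with 1 sample left out therefore do not by themselves show a change particular to pathway genes. Calls among the other pathway genes also changed with 1 sample left out. With the replicate number as a block, 6 members were called, 5 higher and 1 lower, all among the 11, against 9.19% of all genes. The members not called with the block were Wnt2 (adjusted p 0.0777), Wnt7a (0.066), Fzd2 (0.0535), Fzd9 (0.0657) and Fzd10 (0.0857). Of other pathway genes 3 were higher and 3 lower, without Kremen1 (0.076), Ndp (0.0825), Prickle2 (0.0914) and Ryk (0.0756). Same-numbered samples did not deviate together (r = -0.04 across genes, which are not independent), and the samples share only a number. Among genes above the median level, 19 members were tested, and 2 rose (15.1% of all such genes did) and 6 fell (12.5% of them). After cyclic loess 5 members fell. An adjusted p of 0.1 gave 6 lower members, against 11.9% of all genes. A threshold of 0.01 gave 3 called, against 4.13% of all genes, with 2 higher (1.45%) and 1 lower (2.68%). With the lower quartile of all genes as the mark, 5 members in place of 9 were near background. The causes of these shifts were not tested.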
